A study of Homo sapiens with 9 samples.

Results

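Expression of 10 enzyme genes of asparagine, serine, glycine, proline and mitochondrial one-carbon metabolism was examined in HCT116 cells, a human cell line established from a colon carcinoma. The genes were ASNS, PHGDH, PSAT1, PSPH, SHMT1, SHMT2, MTHFD2, MTHFD1L, ALDH1L2 and PYCR1. They were taken as a list, and all 10 were found by Ensembl identifier among the 58395 genes of each table. They were selected on their differences in expected count and TPM between the same groups, with earlier results of these libraries known. The levels and fold changes of the 10 genes are therefore given as a description, and no p-value is printed for them. Whether each passed a threshold of adjusted p is stated below, also as a description and not as a test of the 10 genes.

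The data were 9 RNA-seq libraries, 3 in each of 3 groups, all from HCT116 cells infected with a lentiviral short hairpin RNA against STBD1 (shSTBD1), a glycogen-binding protein that the study links to glycogen autophagy. The plvx neo group carried the empty plvx vector as well. The STBD1 WT group expressed the wild-type protein from this vector, and the STBD1 W203C group expressed the same protein with the tryptophan of its ATG8-binding motif changed to cysteine. Cells were kept in DMEM with serum and without any further treatment that the labels name, and infected cells were selected with puromycin or G418. Each group was 1 infected line, and whether it was a clone or a pool is not given in the sources used here. The 3 libraries of a group were described as biological replicates, so the spread between them is that of cultures of a single line. In the names of the deposited tables STBD1 WT and STBD1 W203C are exchanged relative to the sample labels. Groups follow the labels, each direction between the constructs holds for the libraries as labelled, and an exchange of the labels would turn it around. All levels given for 1 construct, and its comparison with plvx neo, would then belong to the other construct.

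ASNS makes asparagine from aspartate with glutamine as the donor of nitrogen. PHGDH, PSAT1 and PSPH act in that order to make serine from the glycolytic intermediate 3-phosphoglycerate, and PSAT1 takes its amino group from glutamate. Serine is then split to glycine by SHMT1 in the cytosol or SHMT2 in the mitochondrion, which loads a one-carbon unit onto folate. In the mitochondrion, MTHFD2 oxidises that unit and MTHFD1L releases it as formate, while ALDH1L2 oxidises it to carbon dioxide with formation of NADPH. PYCR1 carries out the last, reducing step of proline synthesis in the mitochondrion. Many of these genes are known targets of ATF4, the transcription factor of the integrated stress response, which is induced when amino acids run short.

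Promoter sequences are shown for the 3 genes whose levels differed most between the groups, so that the letters of known elements can be seen before the values. RefSeq promoters (table build GRCh38.p14, coordinates hg38) were matched for 6 of the 10 genes, namely ASNS, PHGDH, PSAT1, SHMT1, MTHFD2 and MTHFD1L, and there was no entry for PSPH, SHMT2, ALDH1L2 and PYCR1. Both strands were searched for TGATGNAA, letters of the composite element that ATF4 binds with C/EBP partners, and for CCAAT, the box bound by NF-Y. The 2 motifs share no letters where they were found. Each sequence below is the 250 bases before the transcription start, 5′ to 3′ on the strand of the gene, and capitals mark the motifs. ASNS is at chr7:97872409-97872658 on the minus strand, PHGDH at chr1:119711684-119711933 on the plus strand and PSAT1 at chr9:78296875-78297124 on the plus strand.
ASNS: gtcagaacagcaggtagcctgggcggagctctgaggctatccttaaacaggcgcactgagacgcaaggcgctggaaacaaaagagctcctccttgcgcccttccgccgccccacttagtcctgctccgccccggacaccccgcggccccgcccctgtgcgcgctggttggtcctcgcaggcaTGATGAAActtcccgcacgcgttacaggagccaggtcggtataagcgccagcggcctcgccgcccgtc
PHGDH: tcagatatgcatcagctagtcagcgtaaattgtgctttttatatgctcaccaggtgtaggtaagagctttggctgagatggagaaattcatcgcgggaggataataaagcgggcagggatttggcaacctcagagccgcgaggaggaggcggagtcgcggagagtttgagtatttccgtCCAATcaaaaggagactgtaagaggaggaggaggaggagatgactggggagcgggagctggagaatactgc
PSAT1: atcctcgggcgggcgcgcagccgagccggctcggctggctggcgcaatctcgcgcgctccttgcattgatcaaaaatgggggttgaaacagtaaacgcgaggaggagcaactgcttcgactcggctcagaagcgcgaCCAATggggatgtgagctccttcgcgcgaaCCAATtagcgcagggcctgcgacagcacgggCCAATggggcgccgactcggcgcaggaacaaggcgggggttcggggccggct

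The ASNS promoter shown held TGATGAAA once, with its first base 68 bases before the start (position -68), and no CCAAT. The window of a second listed ASNS start, at chr7:97872166-97872415 and further into the gene, held neither motif. PHGDH held 1 CCAAT, at -71, and PSAT1 held 3, at -113, -83 and -52. Neither held TGATGNAA in the window from 250 bases before to 50 bases after the start. Among the others, MTHFD1L held 1 TGATGCAA and 1 CCAAT. The windows of 3 of its listed starts overlap and hold this same TGATGCAA, counted as -129, -90 and 24, and this same CCAAT. MTHFD2 and SHMT1 each held CCAAT 2 times and no TGATGNAA. Over all 35116 RefSeq promoters of the same length, 3.62% held TGATGNAA and 34.6% held CCAAT. The matches describe letters in these windows only.

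Total expected counts were 16.9 to 23.3 M per library (M, mega), and the 10 most abundant genes took 5.87% to 6.89% of them. Expression of STBD1 and the read-through gene FAM47E-STBD1, which share exons, summed to 4.12 to 5.62 TPM in plvx neo, 52.3 to 57.0 TPM in STBD1 WT and 43.5 to 47.9 TPM in STBD1 W203C. TPM, the share of transcripts scaled to a fixed total, is the authors' estimate of abundance per transcript length, so it allows levels of different genes to be compared. Of 8 epithelial markers, 6 were at 1 TPM or more in each group, and VIL1 and LGALS4 were below it. They summed to 3798 to 3899 TPM in plvx neo libraries, 3393 to 3528 TPM with STBD1 WT and 3177 to 3437 TPM with STBD1 W203C. KRT8, KRT18 and EPCAM fell by 0.43, 0.44 and 0.11 on the log2 scale in STBD1 WT vs plvx neo, where KRT19 and CDH1 rose by 0.43 and 0.27 (edgeR adjusted p = 5.48e-08, 9.64e-09, 0.0270, 7.72e-08 and 0.000107). Between the constructs, KRT19 and CDH1 fell by 0.40 and 0.27 and EPCAM rose by 0.14 in STBD1 W203C (edgeR adjusted p = 5.35e-07, 0.000248 and 0.0146), and KRT8 and KRT18 were not called. The defining immune markers PTPRC, CD3E and LYZ and the fibroblast and endothelial markers COL1A2, COL3A1, PECAM1 and VWF were below 1 TPM in every group. COL1A1, of the same list, was at 12.6 to 21.6 TPM over the libraries and overlapped between groups in TPM, while on counts it rose by 0.48 in STBD1 WT vs plvx neo and fell by 0.49 in STBD1 W203C vs STBD1 WT (edgeR adjusted p = 9.11e-06 and 9.07e-06). CD68 was at 3.86 to 6.47 TPM in the STBD1 WT libraries and at 1.33 to 2.41 TPM in the others, and the part of these markers in the results was not tested. As these are bulk RNA samples, fewer cells that express a gene and less RNA per cell cannot be told apart. Library 3 of STBD1 W203C stood highest of its group for 6 of the 10 enzymes, by the widest margins for ASNS, PSAT1 and PYCR1, and values without it are given for ASNS, PHGDH, PSAT1, PSPH and PYCR1.

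Seen together, the enzymes were most abundant in plvx neo and least abundant in STBD1 WT. The TPM of the 10 genes summed to 1556 ± 17.5 TPM (SD, n = 3) in plvx neo. The sum was 1034 ± 19.7 in STBD1 WT, against 1344 ± 78.9 in STBD1 W203C. These sums were 0.154% to 0.157% of all TPM in plvx neo, 0.102% to 0.106% in STBD1 WT and 0.128% to 0.143% in STBD1 W203C, so the 3 groups did not overlap. The difference was spread unevenly over the pathway. ASNS, PHGDH and PSAT1 carried the largest fold changes, MTHFD2 came next, SHMT2, MTHFD1L, PSPH and PYCR1 differed by less, and SHMT1 stayed within the spread of its replicates.

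**Figure D1:**
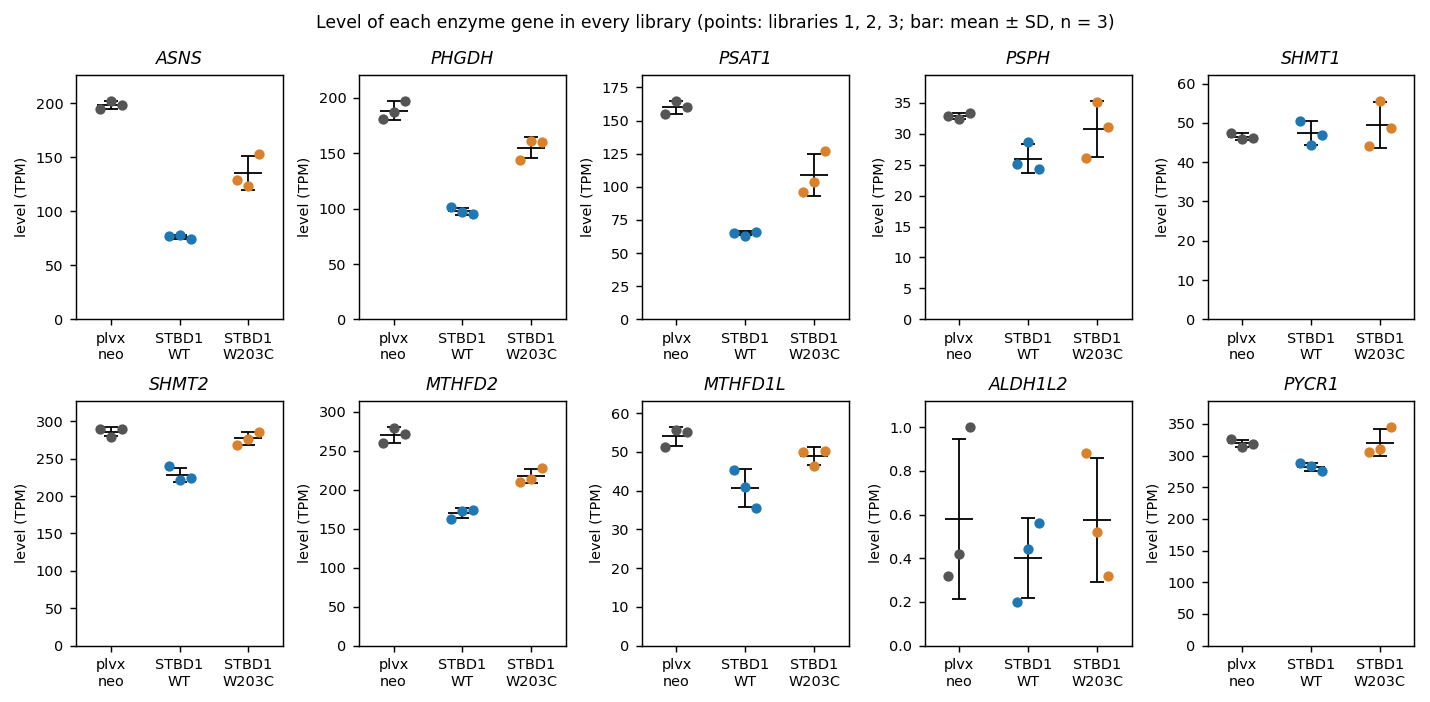
Level of the 10 enzyme genes in TPM (vertical axes, each starting at 0) in the 3 libraries of each group (points), with the mean and SD (bars, n = 3). ASNS, PHGDH, PSAT1, MTHFD2 and MTHFD1L fell into 3 separate groups, with plvx neo highest and STBD1 WT lowest, whereas SHMT1 and ALDH1L2 overlapped in all groups.

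ASNS (ENSG00000070669), asparagine synthetase, lies on the minus strand of chromosome 7 at chr7:97851677-97872542 (hg38). Its level was 194.7, 202.4 and 198.3 TPM in the plvx neo libraries, 77.1, 78.0 and 74.3 TPM in the STBD1 WT libraries, and 129.2, 123.6 and 153.3 TPM in the STBD1 W203C libraries. All STBD1 WT libraries lay below all STBD1 W203C libraries, which in turn lay below all plvx neo libraries. The means were 198.5 ± 3.82, 76.5 ± 1.92 and 135.4 ± 15.8 TPM (SD, n = 3), so STBD1 WT stood at 0.385 times and STBD1 W203C at 0.682 times the plvx neo level. On the log2 scale of the count fit (edgeR, normalised between libraries by TMM), ASNS differed by -1.45 (SE 0.0389) in STBD1 WT vs plvx neo. The difference was 0.85 (SE 0.0630) in STBD1 W203C vs STBD1 WT, and -0.61 (SE 0.0571) between STBD1 W203C and plvx neo. The log2 fold change against plvx neo in STBD1 WT was the second lowest among 9999 tested genes with a mean of at least 5 TPM. Without STBD1 W203C library 3, the values in the other 2 comparisons were 0.74 and -0.72. ASNS shares exons on the same strand with ENSG00000284707, which was at 0.672 TPM on average, and 4 ASNS pseudogenes listed in the tables reached at most 0.00731% of the ASNS level.

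PHGDH (ENSG00000092621), phosphoglycerate dehydrogenase, commits 3-phosphoglycerate to serine synthesis and lies at chr1:119648411-119744218 on the plus strand. Its level was 181.2, 187.2 and 197.4 TPM in plvx neo, 101.1, 97.0 and 94.9 TPM in STBD1 WT, and 143.9, 161.0 and 160.6 TPM in STBD1 W203C. The 3 groups did not overlap. Log2 fold changes of PHGDH were -0.95 (SE 0.0396) in STBD1 WT vs plvx neo, 0.60 (SE 0.0513) in STBD1 W203C vs STBD1 WT and -0.35 (SE 0.0474) between STBD1 W203C and plvx neo. In the first comparison PHGDH ranked 9 from the lowest of the same 9999 genes. Without STBD1 W203C library 3 the other 2 values were 0.53 and -0.42, and on log2(TPM + 1) the last was -0.28 and was not called. For PHGDH the smallest estimated transcript length was 88.6% of the largest, which can shift its TPM. The ratio of STBD1 W203C to plvx neo was 0.823 on TPM and 0.787 on counts scaled by library size.

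PSAT1 (ENSG00000135069), phosphoserine aminotransferase, lies at chr9:78297125-78330093 on the plus strand and carries out the next step. It was measured at 154.7, 164.8 and 160.3 TPM in plvx neo and at 65.5, 63.2 and 66.0 TPM in STBD1 WT. In STBD1 W203C it was at 96.5, 103.3 and 127.0 TPM, with library 3 apart from the other 2 and the coefficient of variation at 14.7%. The groups did not overlap. PSAT1 had a log2 fold change of -1.31 (SE 0.0373) in STBD1 WT vs plvx neo, rank 5 from the lowest, and of 0.72 (SE 0.0691) in STBD1 W203C vs STBD1 WT. Between STBD1 W203C and plvx neo the value was -0.60 (SE 0.0635). Without STBD1 W203C library 3 these 2 values were 0.58 and -0.73.

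PSPH (ENSG00000146733), the phosphatase that releases serine in the last step, lies at chr7:56011051-56051604 on the minus strand. Its level was the lowest of the serine synthesis genes, at 32.8, 32.3 and 33.3 TPM in plvx neo, 25.1, 28.7 and 24.2 TPM in STBD1 WT and 26.1, 35.2 and 31.1 TPM in STBD1 W203C. STBD1 WT lay below plvx neo without overlap, and STBD1 W203C spanned nearly the whole range of both. In STBD1 W203C, PSPH was at 30.78 ± 4.536 TPM (SD, n = 3). Counts scaled by library size (CPM) gave 33.83 ± 2.555 for the same libraries. The estimated transcript length of PSPH varied, with the smallest at 77.7% of the largest. Its TPM and the TPM ratios below are therefore less certain. For PSPH the log2 fold changes in the same 3 comparisons, in this order, were -0.28 (SE 0.0602), 0.10 (SE 0.0684) and -0.19 (SE 0.0650). Without STBD1 W203C library 3 the last 2 were 0.04 and -0.25, and PSPH was then called lower in STBD1 W203C than in plvx neo. The steps of serine synthesis therefore differed in proportion. PSAT1 was at 4.71 to 5.10 times the TPM of PSPH in plvx neo, 2.21 to 2.72 times in STBD1 WT and 2.94 to 4.09 times in STBD1 W203C. The ratio of PHGDH to PSAT1 was 1.14 to 1.23 in plvx neo and 1.44 to 1.54 in STBD1 WT, with 1.26 to 1.56 in STBD1 W203C. The summed level of PHGDH, PSAT1 and PSPH was 381.3 ± 11.5, 188.5 ± 3.32 and 294.9 ± 26.4 TPM (SD, n = 3) in the groups as listed.

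**Figure D2:**
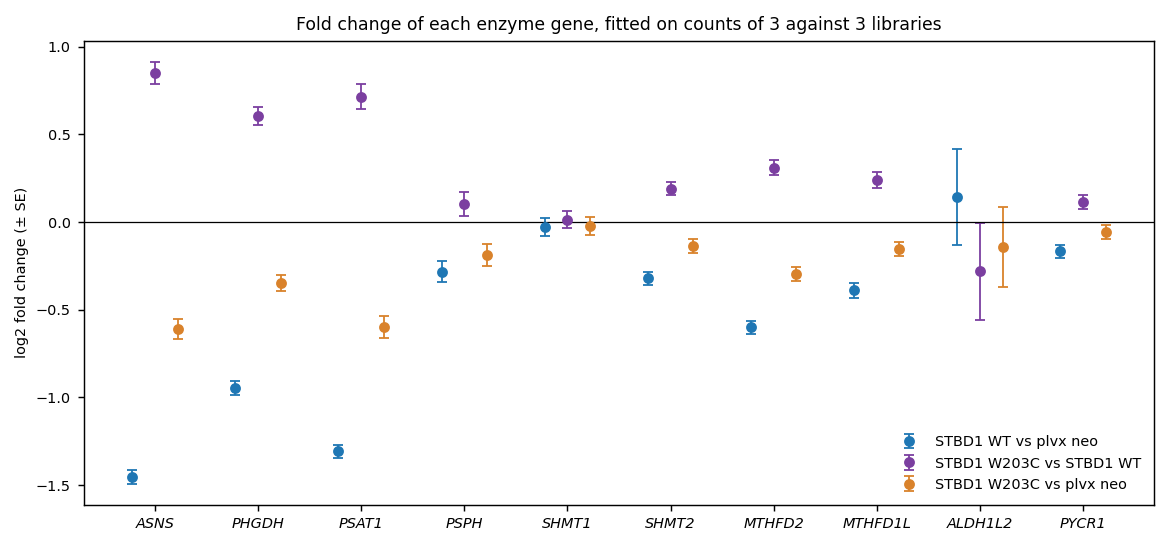
Log2 fold change of each enzyme gene (vertical axis, ± SE) in the 3 comparisons, fitted on counts of 3 against 3 libraries. In STBD1 WT vs plvx neo the values ran from -1.45 for ASNS to 0.14 for ALDH1L2, and the 3 comparisons share groups of libraries, so they are not independent of each other.

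Serine hydroxymethyltransferase was examined next in its cytosolic and mitochondrial forms. SHMT2 (ENSG00000182199; chr12:57229573-57234935, plus strand), the mitochondrial form, was at 289.9, 279.3 and 289.3 TPM in plvx neo, 239.6, 221.9 and 223.8 TPM in STBD1 WT and 268.6, 276.7 and 286.2 TPM in STBD1 W203C. STBD1 WT was lowest in all 3 libraries, and STBD1 W203C overlapped plvx neo. Log2 fold changes of SHMT2 were -0.32 (SE 0.0379), 0.19 (SE 0.0370) and -0.14 (SE 0.0390) in the 3 comparisons, in the same order as above. The last of these was -0.05 on log2(TPM + 1), where its call was lost, and on counts the call was also lost when any of 4 libraries was left out (plvx neo 1 or 3, STBD1 W203C 1 or 2; -0.10 to -0.14).

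SHMT1 (ENSG00000176974; chr17:18327860-18363563, minus strand), the cytosolic form, did not follow this pattern. It was at 47.4, 46.0 and 46.1 TPM in plvx neo, 50.5, 44.4 and 47.0 TPM in STBD1 WT and 44.02, 55.61 and 48.56 TPM in STBD1 W203C, with all groups overlapping. On the log2 scale the differences were -0.03 (SE 0.0512), 0.01 (SE 0.0484) and -0.02 (SE 0.0531) in the 3 comparisons, each smaller than its SE, and the sign differed between scales. SHMT1 overlaps exons of SMCR8 on the opposite strand, at 5.55 TPM on average, and whether counting used strand was not stated. The ratio of SHMT2 to SHMT1 was 6.07 to 6.28 in plvx neo, 4.75 to 5.00 in STBD1 WT and 4.98 to 6.10 in STBD1 W203C. Only STBD1 WT and plvx neo were separated, and STBD1 W203C overlapped both. In STBD1 W203C, SHMT1 spread less on CPM, at 66.27 ± 2.6, than on TPM, at 49.4 ± 5.84 (SD, n = 3). The estimated transcript length of SHMT1 varied, with the smallest at 87% of the largest. The part of this in the TPM ratio was not tested.

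MTHFD2 (ENSG00000065911; chr2:74186172-74217565, plus strand), the mitochondrial dehydrogenase and cyclohydrolase, was at 259.3, 279.4 and 271.6 TPM in plvx neo, 162.5, 172.7 and 174.5 TPM in STBD1 WT and 210.4, 214.3 and 228.0 TPM in STBD1 W203C. The groups did not overlap and the spread within each was small, with coefficients of variation of 3.75%, 3.80% and 4.25%. Log2 fold changes of MTHFD2 were -0.60 (SE 0.0377), 0.31 (SE 0.0422) and -0.30 (SE 0.0387) in the same order. MTHFD2 ranked 33 from the lowest of 9999 genes in the first comparison. Its 7 listed pseudogenes were at 0 TPM in all libraries.

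MTHFD1L (ENSG00000120254; chr6:150865679-151101887, plus strand), the mitochondrial formate-releasing synthetase, had a level of 51.3, 55.6 and 55.3 TPM in plvx neo, 45.4, 41.0 and 35.6 TPM in STBD1 WT and 50.1, 46.3 and 50.3 TPM in STBD1 W203C. Its groups kept the same order without overlap, although the highest STBD1 WT library and the lowest STBD1 W203C library were less than 1 TPM apart. The log2 fold change was -0.39 (SE 0.0438), 0.24 (SE 0.0454) and -0.15 (SE 0.0411) in the same order. The call of MTHFD1L between STBD1 W203C and plvx neo was lost without any of the same 4 libraries as for SHMT2 (-0.13 to -0.17) and on log2(TPM + 1) (-0.14). The call between the constructs was also lost on log2(TPM + 1) (0.27), and that in STBD1 WT vs plvx neo on the same scale without a filter on low values (-0.41). For MTHFD1L the smallest estimated transcript length was 87.9% of the largest, which can shift its TPM.

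ALDH1L2 (ENSG00000136010; chr12:105019784-105107643, minus strand), the mitochondrial formyltetrahydrofolate dehydrogenase, was barely detected, at 0.32, 0.42 and 1.0 TPM in plvx neo, 0.20, 0.44 and 0.56 TPM in STBD1 WT and 0.88, 0.52 and 0.32 TPM in STBD1 W203C. It had 24 to 71 expected counts per library, and the groups overlapped throughout. Its fitted log2 fold change in STBD1 WT vs plvx neo was 0.14 (SE 0.275), followed by -0.28 (SE 0.278) in STBD1 W203C vs STBD1 WT and -0.14 (SE 0.227) between STBD1 W203C and plvx neo, each about as large as its SE or smaller. In STBD1 WT vs plvx neo the counts and the TPM went opposite ways, at -0.16 on log2(TPM + 1). The transcript length that the authors' software estimated for ALDH1L2 varied, with the smallest at 40.8% of the largest, and its exons overlap NOPCHAP1 (14.1 TPM) and WASHC4 (9.56 TPM) on the opposite strand, so its level is uncertain.

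PYCR1 (ENSG00000183010; chr17:81932384-81942412, minus strand), pyrroline-5-carboxylate reductase, was the most abundant of the 10 genes. It was at 325.4, 314.0 and 318.5 TPM in plvx neo, 288.7, 282.9 and 276.1 TPM in STBD1 WT and 305.4, 311.1 and 345.0 TPM in STBD1 W203C. STBD1 WT lay below the other 2 groups, which overlapped. In the first comparison PYCR1 differed by -0.17 (SE 0.0363) on the log2 scale, and in STBD1 W203C vs STBD1 WT by 0.11 (SE 0.0401). Between STBD1 W203C and plvx neo the value was -0.06 (SE 0.0388). The call in STBD1 W203C vs STBD1 WT was lost without STBD1 WT library 2 (0.12), STBD1 WT library 3 (0.10) or STBD1 W203C library 3 (0.07), in the blocked fit on replicate number (0.11), and on log2(TPM + 1) (0.18). ASNS, which like PYCR1 makes a nonessential amino acid, was at 0.622 ± 0.0230 times the TPM of PYCR1 in plvx neo, 0.271 ± 0.00451 times in STBD1 WT and 0.422 ± 0.0236 times in STBD1 W203C (SD, n = 3).

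A gene was called where the edgeR quasi-likelihood test gave a Benjamini-Hochberg adjusted p below 0.05 over all genes tested. Against plvx neo, STBD1 WT had 8 of the 10 enzymes called lower and 0 higher, and the TPM of the same 8 lay lower without overlap. SHMT1 and ALDH1L2 were not called. Across the 15289 genes tested there, 27.8% were called, 13.9% were called lower and 15.7% lay lower without overlap in TPM. In STBD1 W203C vs STBD1 WT, 7 were called higher and 0 lower, and these 7 lay higher without overlap in TPM. There, 27.9% of 15052 genes were called, 14.5% were called higher and 21.3% lay higher without overlap. In STBD1 W203C vs plvx neo, 6 were called lower and 0 higher, and 5 lay lower without overlap in TPM, where 5.7% of 15081 genes were called, 2.67% were called lower and 5.48% lay lower without overlap. The 6 were ASNS, PHGDH, PSAT1, SHMT2, MTHFD2 and MTHFD1L. On log2(TPM + 1) with limma, 3 of them (ASNS, PSAT1 and MTHFD2) were called in the last comparison and 5 enzymes in STBD1 W203C vs STBD1 WT, where MTHFD1L and PYCR1 lost their calls. In STBD1 WT vs plvx neo this scale called 8 enzymes, and 6 without a filter on low values, where PSPH and MTHFD1L lost their calls. Among all genes the calls of STBD1 W203C vs STBD1 WT on log2(TPM + 1) were split 1241 higher to 538 lower, against 2178 to 2024 on counts. The median log2 fold change of the genes tested on counts was 0.0408 on that scale and -0.0078 on counts. Correction for GC content and length moved the split in STBD1 WT vs plvx neo to 1619 higher and 3352 lower, from 2128 and 2126, and left the count of the 10 enzymes at 8. The median over the genes tested moved from 0.0061 to -0.0399 with this correction.

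The median log2 fold change of the 10 enzymes was -0.36, 0.22 and -0.17 in the 3 comparisons, beside medians of 0.0061, -0.0078 and -0.0031 over all genes tested. The TPM of 5 enzymes, ASNS, PHGDH, PSAT1, MTHFD2 and MTHFD1L, fell from plvx neo through STBD1 W203C to STBD1 WT with no overlap between groups, an order held by 0.614% of 14821 genes tested in every comparison. All 10 enzymes passed the filter on low counts. As the enzymes were selected on these libraries, nothing is read from these counts.

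Genes that work beside the 10 enzymes were then examined from lists of genes grouped by their known function. These lists were also chosen with earlier results of these data known, so their counts, shares and p-values are a description. Among 8 paralogs and partners, 7 passed the filter on low counts, of which 3 fell and 0 rose in STBD1 WT vs plvx neo (median log2 fold change -0.12), 2 rose and 0 fell in STBD1 W203C vs STBD1 WT (median 0.08), and none was called in STBD1 W203C vs plvx neo, where 1 had an unadjusted p below 0.05. The called shares of this list were 42.9%, 28.6% and 0%, beside 27.8%, 27.9% and 5.7% of all genes. MTHFD1, the cytosolic enzyme that joins the steps of MTHFD2 and MTHFD1L on 1 protein, fell by 0.18 on the log2 scale (SE 0.0372, edgeR quasi-likelihood with Benjamini-Hochberg adjusted p = 0.00113) in STBD1 WT vs plvx neo and rose by 0.18 (SE 0.0368, adjusted p = 0.000711) in STBD1 W203C vs STBD1 WT. Its level was 97.0 to 98.5 TPM in plvx neo, 84.5 to 90.0 TPM in STBD1 WT and 97.7 to 105.8 TPM in STBD1 W203C. MTHFD2 was at 2.66 to 2.88 times the TPM of MTHFD1 in plvx neo, 1.81 to 2.04 times in STBD1 WT and 2.03 to 2.33 times in STBD1 W203C, and the last 2 groups overlapped.

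SFXN1, which carries serine into the mitochondrion, fell by 0.10 (SE 0.0369, edgeR quasi-likelihood test, adjusted p = 0.0457 after Benjamini-Hochberg) in STBD1 WT vs plvx neo, although its TPM overlapped. SLC25A32, the mitochondrial folate carrier, fell by 0.12 in the same comparison (SE 0.0456, edgeR quasi-likelihood test, adjusted p = 0.0480 after Benjamini-Hochberg). MTHFD2L, a paralog of MTHFD2 at 6.28 to 7.90 TPM on average, rose by 0.29 in STBD1 W203C vs STBD1 WT (SE 0.0941, edgeR quasi-likelihood test, adjusted p = 0.0264 after Benjamini-Hochberg). ASNSD1 and PYCR3 passed the threshold in none of the 3 comparisons, with log2 fold changes from -0.10 to 0.21. ALDH1L1, the cytosolic counterpart of ALDH1L2, was below 0.1 TPM on average in each group and was not tested. The calls of SFXN1 and SLC25A32 lay close to the threshold, and with each library left out in turn the count of 3 in STBD1 WT vs plvx neo was 1 to 2. This count was 1 with DESeq2 or without a filter on low counts and 0 on TPM with limma, so the call of MTHFD1 was lost on TPM as well. The count of 2 in STBD1 W203C vs STBD1 WT was 1 with DESeq2 or without any 1 library of STBD1 WT, 1 on log2(TPM + 1) and 0 on this scale unfiltered, and 4 after correction for GC content and length.

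Of 25 other enzymes and carriers of folate and one-carbon metabolism, 22 were tested. In STBD1 WT vs plvx neo 8 fell and 3 rose, in STBD1 W203C vs STBD1 WT 10 rose and 2 fell, and in STBD1 W203C vs plvx neo 1 rose and 1 fell. These were 50%, 54.5% and 9.09% of the list, read against the same 27.8%, 27.9% and 5.7% of all genes. GART, which uses formyl-folate in purine synthesis, fell by 0.35 (SE 0.0396, edgeR quasi-likelihood test, adjusted p = 1.74e-06 after Benjamini-Hochberg) in STBD1 WT vs plvx neo, from 114.9 ± 6.71 to 91.0 ± 1.31 TPM (SD, n = 3). TYMS, thymidylate synthase, fell by 0.21 in the same comparison (SE 0.0358, adjusted p = 0.000157 by the same edgeR test). MTHFS, which returns 5-formyl folate to the active pool, fell by 0.34 in STBD1 WT vs plvx neo (SE 0.0716, edgeR adjusted p = 0.00145) and rose by 0.44 in STBD1 W203C vs STBD1 WT (SE 0.0719, edgeR adjusted p = 9.29e-05). SLC19A1, the reduced folate carrier, rose in STBD1 W203C by 0.41 against STBD1 WT (SE 0.0539, edgeR adjusted p = 7.90e-06) and by 0.24 against plvx neo (SE 0.0546, edgeR adjusted p = 0.00806). The medians of this list were -0.04, 0.05 and -0.01 in the 3 comparisons.

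Because most of the 10 enzymes are known targets of ATF4, genes of the integrated stress response were set beside them. ATF4 itself was at 404.0, 424.4 and 430.4 TPM in plvx neo, 336.7, 341.4 and 334.8 TPM in STBD1 WT and 355.9, 357.4 and 358.8 TPM in STBD1 W203C. It fell by 0.30 in STBD1 WT vs plvx neo (SE 0.0349, Benjamini-Hochberg adjusted p = 2.60e-06 by the edgeR quasi-likelihood test). In the other construct against plvx neo it fell by 0.26 (SE 0.0336, adjusted p = 1.47e-05 by the same edgeR test). Between the constructs the log2 fold change of ATF4 was 0.04 (SE 0.0354, edgeR adjusted p = 0.448), where that of ASNS was 0.85. The TPM of ASNS was 0.473 ± 0.0111 times that of ATF4 in plvx neo, 0.226 ± 0.00389 times in STBD1 WT and 0.379 ± 0.0429 times in STBD1 W203C (SD, n = 3). ATF4 is regulated to a large part through its translation, which RNA levels do not measure.

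Of the 24 genes of this list, 21 were tested. In STBD1 WT vs plvx neo 9 fell and 3 rose, in STBD1 W203C vs STBD1 WT 8 rose and 3 fell, and in STBD1 W203C vs plvx neo 6 fell and 3 rose, with medians of -0.05, 0.06 and -0.02. The called shares were 57.1%, 52.4% and 42.9%, where all genes had 27.8%, 27.9% and 5.7%. TRIB3, a pseudokinase induced by ATF4, was at 38.5 to 40.6 TPM in plvx neo, 25.2 to 28.4 TPM in STBD1 WT and 29.1 to 34.8 TPM in STBD1 W203C. It fell by 0.58 in STBD1 WT vs plvx neo (SE 0.0524, edgeR adjusted p = 7.41e-08). Against plvx neo, STBD1 W203C was lower by 0.40 (SE 0.0639, edgeR adjusted p = 0.000250), and TRIB3 rose by 0.19 in STBD1 W203C vs STBD1 WT (SE 0.0653, edgeR adjusted p = 0.0365). CHAC1, a glutathione-degrading enzyme, fell by 0.85 in STBD1 WT vs plvx neo (SE 0.117, edgeR adjusted p = 1.71e-05). It also fell by 0.68 in STBD1 W203C vs plvx neo (SE 0.1365, edgeR adjusted p = 0.00262), where the TPM of the groups overlapped. STBD1 W203C library 3 stood at 9.17 TPM against 5.18 and 5.44 TPM in the other 2. CARS1, the cysteinyl-tRNA synthetase, fell by 0.62 in STBD1 WT and by 0.41 in STBD1 W203C, both against plvx neo (SE 0.0405 and 0.0447, edgeR adjusted p = 9.09e-10 and 1.52e-06).

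Other genes of the same list went the other way. ATF3, a stress-induced transcription factor, rose by 0.53 in STBD1 WT vs plvx neo (SE 0.0493, edgeR adjusted p = 1.07e-07), from 116.7 ± 15.2 to 173.7 ± 4.07 TPM (SD, n = 3), and was 0.25 lower on the log2 scale in STBD1 W203C than in STBD1 WT. GDF15, a secreted stress factor, rose by 0.51 in STBD1 WT vs plvx neo (SE 0.0743, edgeR adjusted p = 3.65e-05) and by 0.33 between STBD1 W203C and plvx neo (SE 0.0502, edgeR adjusted p = 0.000130). DDIT3, which encodes CHOP, was not called in any comparison, with log2 fold changes of 0.07, -0.05 and 0.01 and edgeR adjusted p from 0.677 to 0.984.

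**Figure D3:**
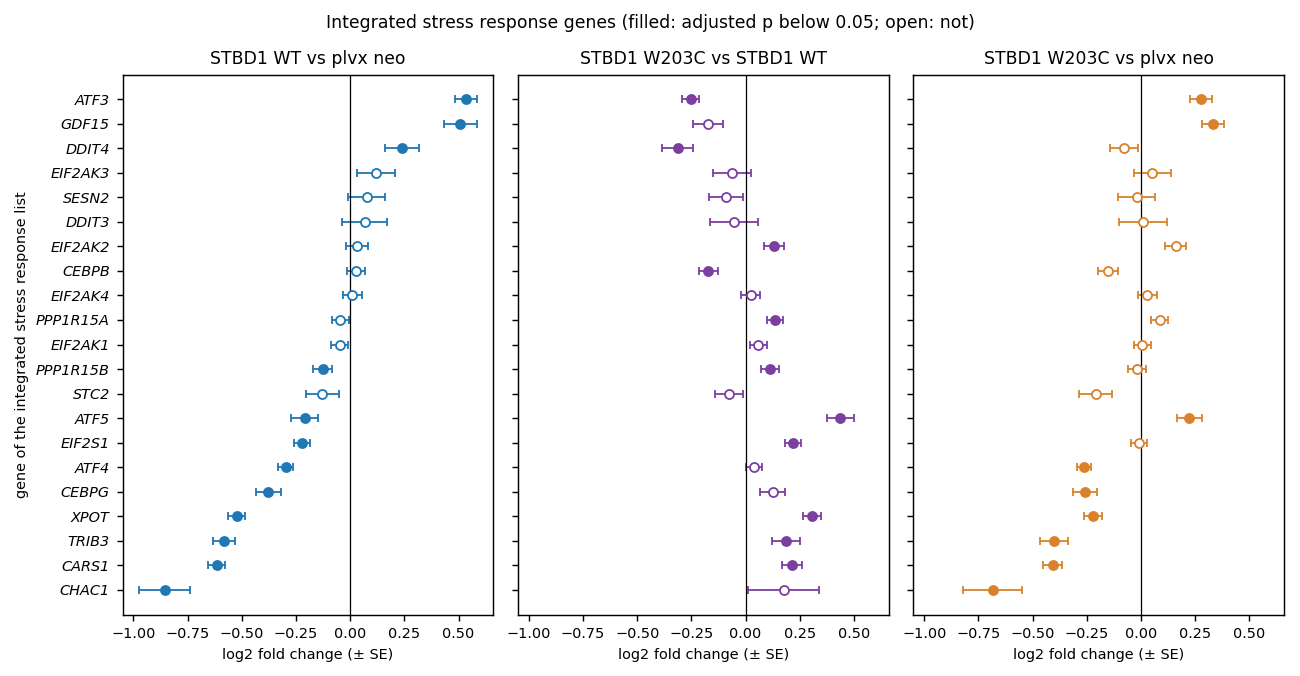
Log2 fold change (horizontal axis, ± SE) of the 21 tested genes of the integrated stress response list in the 3 comparisons, ordered by STBD1 WT vs plvx neo; filled points had an edgeR adjusted p below 0.05. In STBD1 WT vs plvx neo 9 genes fell, led by CHAC1, CARS1 and TRIB3, and 3 rose, led by ATF3 and GDF15.

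The genes whose pattern over the 9 libraries lay closest to that of ASNS were looked up. The measure was the root mean square difference of log2(TPM + 1), each gene centred on its own mean, over 9987 other genes with a symbol and a mean of at least 5 TPM. This measure asks for a swing of like size as well as like order. Among the listed enzymes, PSAT1 was nearest to ASNS at 0.0648, followed by PHGDH at 0.194 and MTHFD2 at 0.297. Outside the list, the nearest were CSTA (0.207), PCK2 (0.222) and HSPA1B (0.272).

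CSTA, a cysteine protease inhibitor, was at 9.88 to 10.9 TPM in plvx neo, 5.21 to 5.25 TPM in STBD1 WT and 7.06 to 9.13 TPM in STBD1 W203C. PCK2, the mitochondrial phosphoenolpyruvate carboxykinase, was at 31.0 to 34.4, 16.5 to 17.4 and 19.8 to 26.8 TPM, and like ASNS and PSAT1 it was highest in library 3 of STBD1 W203C. YARS1, the tyrosyl-tRNA synthetase and among the nearest to PHGDH, was at 123.6 ± 7.31, 78.8 ± 1.73 and 103.4 ± 4.96 TPM (SD, n = 3). HSPA1B, a heat shock protein gene, has a nearly identical copy in HSPA1A, so its level depends on how reads were divided. CSTA, PCK2 and HSPA1B were also the 3 nearest to PSAT1 outside the list (0.187, 0.180 and 0.242), and HSPA1B, CSTA and YARS1 were nearest to PHGDH (0.111, 0.117 and 0.149). All listed enzymes lay further from PHGDH than these, with MTHFD2 at 0.152, PSAT1 at 0.172 and ASNS at 0.194. The genes outside the list were selected for their likeness, so their differences between groups were not tested.

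**Figure D4:**
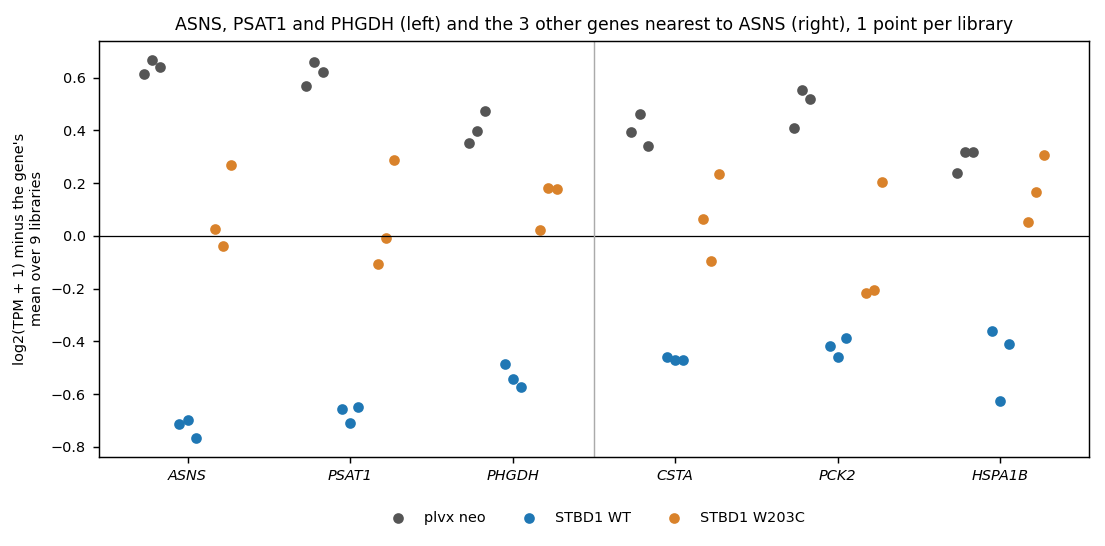
Values of log2(TPM + 1) minus the mean of each gene over the 9 libraries (vertical axis) for ASNS, PSAT1 and PHGDH and for the 3 genes outside the list nearest to ASNS, 1 point per library, coloured by group. All STBD1 WT points lie below 0, from -0.77 for ASNS to -0.36 for HSPA1B, and all plvx neo points lie above 0.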

How the data were processed

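RNA-seq libraries of HCT116 shSTBD1 cells (3 groups of 3) were grouped by the genotype in the sample labels. Per the labels, NEBNext Ultra libraries of total RNA were sequenced from both ends. Low-quality and adapter reads were discarded by the authors, who mapped the others with STAR 2.7.1a (hg38, Ensembl gene models) and estimated abundance with RSEM 1.3.1. The deposited tables hold the RSEM expected count, which divides ambiguous reads between genes and need not be whole, and the TPM, which the authors' software scaled by effective length to a fixed total. Both can shift for genes with overlapping neighbours, since strand use was not stated, and TPM can shift where the estimated length varies.

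Expected counts were rounded, genes passing filterByExpr were normalised by TMM and tested with the quasi-likelihood test of edgeR 4.0.16 (glmQLFit, glmQLFTest, two-sided, R 4.3.3), on the 6 libraries of each comparison, and called at a Benjamini-Hochberg adjusted p below 0.05 over all genes. The SE is the log2 fold change divided by the root of F. Common dispersion gave a biological coefficient of variation of 4.05% to 4.21%. Total expected counts were 16.9 to 23.3 M per library.

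The 10 enzymes and all lists were chosen with earlier results of these data known. Named beside them were STBD1, FAM47E-STBD1, the paralogs and partners, ATF4, DDIT3, TRIB3, the nearest genes (5 for ASNS, of which 3 are given, and 3 each for PHGDH and PSAT1), and from each other list up to 3 called rises and 3 falls per comparison with at least 5 TPM on average and no overlap, of which the text gives part. Some genes of the lists and of the rule are not reported here. Gene symbols matched 98.9% of identifiers. Gene coordinates are those of the supplied GENCODE annotation of hg38. Alternatives were DESeq2 1.42.0 (also the tool of the study), RLE size factors, no filter on low counts, all 9 libraries in the fit, limma 3.58.1 on log2(TPM + 1) or log2(TPM + 0.1), for genes of at least 1 TPM or unfiltered, a replicate block, correction for GC content and length, and each library left out. The tests were checked on simulated data. FPKM columns and the authors' own comparisons were not used here.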

Additional observations from a re-analysis of the deposited data

How the results depend on the processing

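Of 473 alternative fits of the log2 fold change of the 10 enzymes, 422 kept direction and side of the threshold, 32 lost the call, 1 gained it and 18 changed sign; the sign changes were in SHMT1, ALDH1L2 and PYCR1 only and in values that were not called. ASNS ranged from -1.48 to -1.36 in STBD1 WT vs plvx neo over all alternatives. With the replicate number as a block, 8, 6 and 6 enzymes were called in the 3 comparisons, in the order of the report (PYCR1 lost its call in the second at 0.1131), as were 4400, 3662 and 1003 of all genes and 39, 31 and 17 genes of the other lists; same-numbered libraries showed a mean correlation of deviations of 0.0197, -0.00909 and 0.00875, and 5 of 18 cases fitted their own number best, so the numbers were not taken as pairs.

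On TPM, limma called fewer genes, and the cause was not tested. With log2(TPM + 1), log2(TPM + 0.1) and no filter, calls among all genes were 1701, 1703 and 970 in STBD1 WT vs plvx neo (4254 on counts), 1779, 1791 and 991 in STBD1 W203C vs STBD1 WT (4202) and 118, 122 and 15 in STBD1 W203C vs plvx neo (859); the last were 86 higher and 32 lower on log2(TPM + 1), against 457 and 402. Calls in the other lists were 16, 16 and 10, then 17, 17 and 9, then 2, 2 and 0, and enzymes called in STBD1 W203C vs plvx neo were 3, 3 and 0. After correction for GC content and length the split in STBD1 W203C vs STBD1 WT was 3326 higher and 1454 lower, and the median over the genes tested on counts was 0.0379. In STBD1 W203C vs plvx neo on log2(TPM + 1) this median was 0.0376. With each library left out, 459 to 818 of all genes (459 without plvx neo 3, 501 without STBD1 W203C 1, 543 without STBD1 W203C 2) and 4 to 7 enzymes were called in STBD1 W203C vs plvx neo. As a ratio of TMM-scaled CPM (counts scaled by library size), ASNS in STBD1 WT vs plvx neo was 0.364, and SHMT2 was 1.14 and 0.910 in the other comparisons.

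Sign changes, in values that were not called, were for SHMT1 0.0221, 0.0225 and 0.0221 on TPM and -0.0661 to 0.0137 with libraries left out (0.0137 without plvx neo 1; STBD1 WT vs plvx neo), -0.0102 to 0.0452 with libraries left out (-0.0013 and -0.0102 without STBD1 WT 3 or STBD1 W203C 2; STBD1 W203C vs STBD1 WT), and 0.0789, 0.0803 and 0.0789 on TPM, and -0.0577 to 0.0229 with libraries left out (0.0229 without plvx neo 1, 0.0043 without STBD1 W203C 1; STBD1 W203C vs plvx neo). For ALDH1L2 they were -0.1586 on TPM and -0.1303 (without STBD1 WT 3) to 0.4386 with libraries left out, 0.1616 on TPM, and 0.0030 on TPM in the 3 comparisons. For PYCR1 in STBD1 W203C vs plvx neo they were 0.0034, 0.0035 and 0.0034 on TPM. Depth limits ALDH1L2, at 24 to 71 counts.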

Other observations

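Enzymes that supply or use aspartate, glutamate, glutamine and proline moved in both directions. Of 20 listed, 17 were tested in STBD1 WT vs plvx neo, where 4 rose and 5 fell. GPT2, the mitochondrial alanine aminotransferase, fell by 0.52 (SE 0.0548, edgeR quasi-likelihood, adjusted p = 5.52e-07 after Benjamini-Hochberg), and ALDH18A1, which feeds glutamate into proline synthesis upstream of PYCR1, fell by 0.17 (SE 0.0398, edgeR adjusted p = 0.00299). ASL and ASS1, which pass aspartate into arginine, rose by 0.40 and 0.23 (SE 0.0538 and 0.0446, edgeR adjusted p = 1.36e-05 and 0.000551). In STBD1 W203C vs STBD1 WT 4 rose and 4 fell, with ALDH18A1 up by 0.18 (SE 0.0394, edgeR adjusted p = 0.00164) and ASL and ASS1 both lower by 0.32. In STBD1 W203C vs plvx neo, CAD rose and GPT2 fell among 16 tested. The medians of this list were 0.06, -0.02 and 0.0039, and the called shares were 52.9%, 47.1% and 12.5%, beside 27.8%, 27.9% and 5.7% of all genes.

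Of 16 genes that use serine or glycine, 12 were tested, and 1 rose and 3 fell in STBD1 WT vs plvx neo, while 2 rose and 1 fell in STBD1 W203C vs STBD1 WT. These are 33.3% and 25% of the list, close to the 27.8% and 27.9% called among all genes. GCLM, the modifier subunit of the first enzyme of glutathione synthesis, fell by 0.27 there (SE 0.0663, edgeR adjusted p = 0.00441) and rose by 0.34 in STBD1 W203C vs STBD1 WT (SE 0.0616, edgeR adjusted p = 0.000251). PTDSS1, which makes phosphatidylserine, fell by 0.17 and rose by 0.24 in the same comparisons (edgeR adjusted p = 0.00501 and 0.000150). In STBD1 W203C vs plvx neo edgeR called 0 of the 12, 1 had an unadjusted p below 0.05, and DESeq2 also called 0.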
